A study of Mus musculus with 12 samples.

Results

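The 10 genes described here are the NF-kappa B subunit genes Nfkb1, Nfkb2, Rel, Rela and Relb, the inhibitor genes Nfkbia and Tnfaip3, the receptor adaptor gene Tradd, and the early cytokine genes Il1b and Tnf. They were taken by symbol from 23238 symbols, and each symbol had a single entry in every file. The libraries come from mouse meninges at 20 weeks of age, from cells enriched with magnetic beads as meningeal lymphatic endothelial cells, the lining of the lymph vessels around the brain. They form 3 groups of 4, titled SJL_B6, AD_B6 and AD_TG. C57BL/6 is the strain given for all 12, and the letters of the titles, the genotypes and the sex of the animals are not spelled out in the labels. The series title concerns raised DSCR1, an inhibitor of the phosphatase calcineurin, and amyloid pathology of Alzheimer's disease, but no label states an allele, a promoter or a transgene for a group. The design text gives 3 to 4 mice of each strain and does not say whether animals were pooled or whether the 4 libraries of a group were separate animals, and p-values here speak to the variation among these 12 samples, which may be technical.

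NF-kappa B is a family of dimeric transcription factors that is held inactive in the cytoplasm by inhibitor proteins. Signals from TNF, interleukin-1 or Toll-like receptors activate the IKK kinases, the inhibitor is degraded, and dimers such as the one of RelA with the p50 product of Nfkb1 enter the nucleus. In a slower branch, the p100 product of Nfkb2 is processed to p52, which pairs with RelB. The factors switch on the genes of their own inhibitors as well as those of cytokines and adhesion molecules of endothelium and macrophages.

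RefSeq (GRCm38.p6) start-site windows were found for 7 members, namely Nfkb2, Rel, Rela, Nfkbia, Tnfaip3, Il1b and Tnf. The 130 bases before the start are shown for 4 members whose window holds the kappa B consensus, the DNA motif that the dimers bind, and for Tnf, whose window does not. Capitals mark matches on either strand, with overlapping matches merged, and each sequence reads 5′ to 3′ on the strand of the gene.
Nfkbia, chr12:55492648-55492777, minus strand: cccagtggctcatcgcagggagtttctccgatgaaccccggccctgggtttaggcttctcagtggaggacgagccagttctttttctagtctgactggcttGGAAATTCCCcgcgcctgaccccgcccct
Tnfaip3, chr10:19015411-19015540, minus strand: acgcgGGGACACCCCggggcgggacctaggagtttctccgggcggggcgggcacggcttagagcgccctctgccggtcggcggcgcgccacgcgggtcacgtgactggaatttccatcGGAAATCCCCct
Nfkb2, chr19:46304607-46304736, plus strand: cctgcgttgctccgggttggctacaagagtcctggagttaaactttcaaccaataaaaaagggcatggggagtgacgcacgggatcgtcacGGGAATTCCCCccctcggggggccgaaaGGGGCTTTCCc
Rel, chr11:23770970-23771099, minus strand: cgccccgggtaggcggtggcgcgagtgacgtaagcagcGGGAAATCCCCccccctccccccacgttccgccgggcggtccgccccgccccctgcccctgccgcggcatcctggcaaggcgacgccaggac
Tnf, chr17:35202008-35202137, minus strand: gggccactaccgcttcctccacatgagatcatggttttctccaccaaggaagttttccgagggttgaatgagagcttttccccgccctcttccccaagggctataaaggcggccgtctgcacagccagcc

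In the 250 bases before the start, both strands were searched for the kappa B consensus, whose match has 10 bases. A match was present in 2382 of all 32851 RefSeq windows (7.25%) and in 6 of the 10 windows of the members. Several of those windows are starts of Nfkb2. Counted by symbol, 4 of 7 members had a match, beside 2225 of 27025 symbols. The match of Nfkbia began 29 bases before the start. Those of Tnfaip3 began 125 and 12 bases before it, the overlapping ones of Rel 92 and 91, and those of the first Nfkb2 start 39, 38 and 11. The other 2 starts of Nfkb2 had a match 236 and 225 bases before them. The second Tnfaip3 start and the windows of Il1b, Rela and Tnf held no match, which says only that these letters are not in those windows. A match describes the sequence and is not evidence of binding in these cells.

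**Figure D1:**
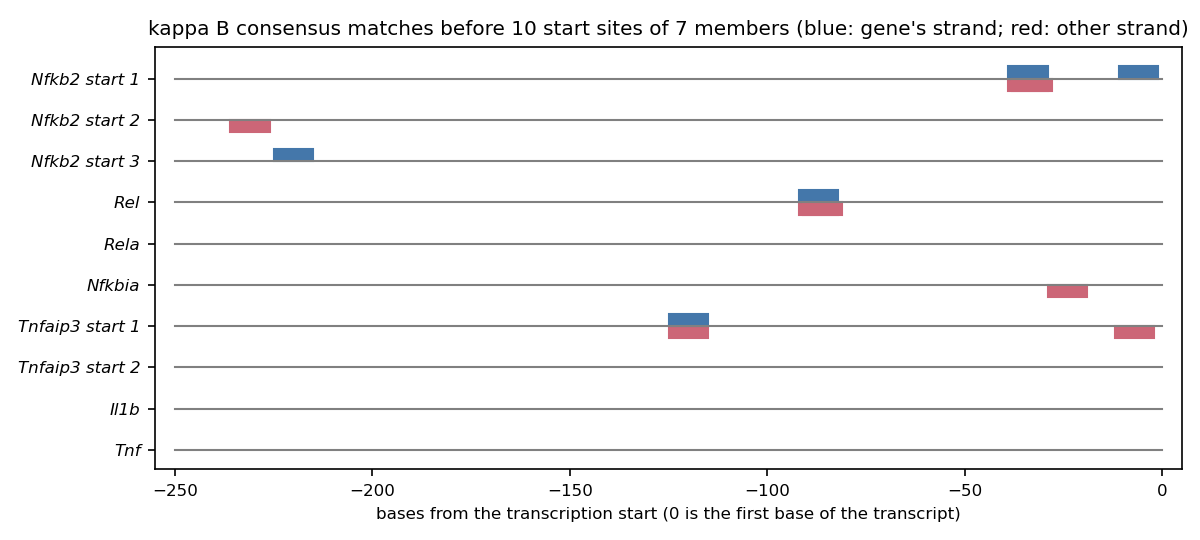
Position of kappa B consensus matches (boxes, above the line on the gene's strand and below it on the other) in the 250 bases before 10 RefSeq start sites of 7 members, with the distance from the start in bases on the x axis. Matches of Nfkbia, Rel, the first Nfkb2 start and the first Tnfaip3 start lie within 125 bases of the start.

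The values are deposited log2 values, log2(x + 1) of a scaled amount x. A linear value of 1 read was estimated from the even steps of low values, and the libraries then held an estimated 4070924 to 9241157 reads (SJL_B6), 5525357 to 8913883 (AD_B6) or 4207885 to 9266737 (AD_TG). A gene had reads in a library from a linear value of 0.3. Genes with reads numbered 10860 to 12217 per library in SJL_B6, 8748 to 11449 in AD_B6 and 11019 to 12018 in AD_TG. Symbols at 0 in every library numbered 5982. Any other gene without reads in a library is at 0 in 7 libraries, and in the other 5 (SJL_B6 replicates 1 and 3, AD_B6 replicate 4, AD_TG replicates 1 and 3) at a small value of at most 0.0519 on the linear scale. Of the 11955 genes tested, 57.1% had at least 1 library without reads beside another at a log2 value of 7 or more. Of the members, 5 to 7 had reads in each AD_B6 library, 6 to 9 in SJL_B6 and 7 to 8 in AD_TG. The label was checked against cell markers. Prox1, the defining factor of lymphatic endothelium, had reads in 2 libraries, Reln in 4, Flt4 in 6, Ccl21a and Itga9 in 9, Lyve1 in 11, and Pdpn and Nrp2 in all 12. Of the pan-endothelial markers, Kdr had reads in all 12 libraries, Egfl7 in 11, Pecam1 in 8, and Tek and Erg in 4. The 10 macrophage markers, led by Csf1r, had reads in all 12. The 6 choroid plexus markers made up 0.23 to 8.63% of a library's linear sum, and the 6 meningeal fibroblast markers 0.098 to 0.80%. For the 10 macrophage markers the share was 0.16 to 0.52%, and for the 8 lymphatic endothelial markers 0.018 to 0.054%.

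**Figure D2:**
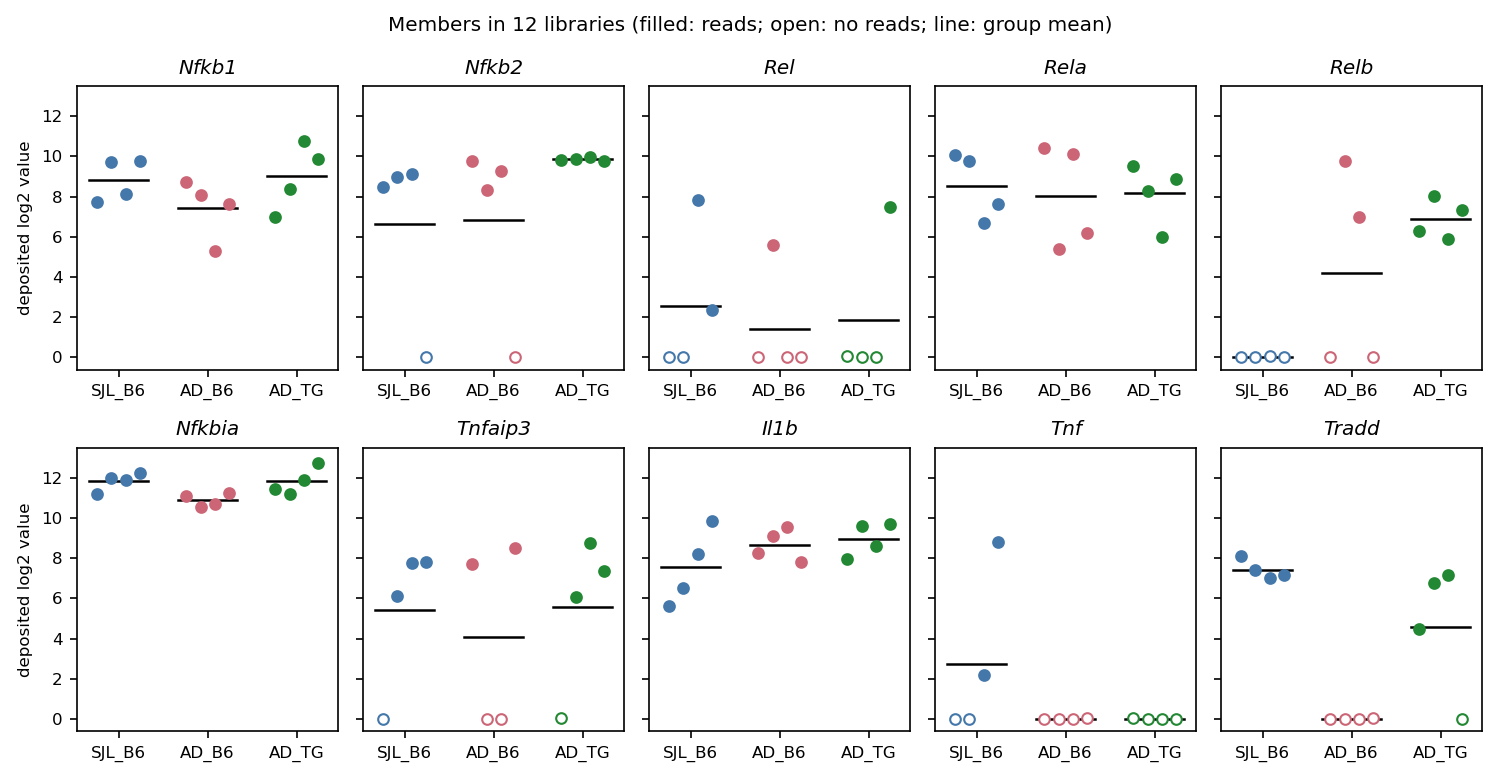
Deposited log2 values of the 10 members (y axis) in the 4 libraries of each group, ordered by replicate number; filled points have reads, open points have none, and lines are group means. Tradd is without reads in all 4 AD_B6 libraries, Relb in all 4 SJL_B6 libraries, and Nfkbia has reads in every library.

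Among the subunits of the fast branch, Nfkb1, which encodes p105 and its product p50, stood at 7.75, 9.70, 8.15 and 9.79 for SJL_B6 replicates 1 to 4, at 8.74, 8.09, 5.30 and 7.65 for AD_B6 and at 6.99, 8.39, 10.78 and 9.88 for AD_TG. The lowest value was that of AD_B6 replicate 3 and the highest that of AD_TG replicate 3, which correspond to about 55 and 1717 reads. Group means were 9.01 ± 1.67 in AD_TG, 8.85 ± 1.05 in SJL_B6 and 7.45 ± 1.497 in AD_B6 (SD, n = 4), and the 3 groups overlapped.

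Rela encodes p65, the subunit with the main activating domain. It stood at 10.06, 9.79, 6.70 and 7.61 for SJL_B6, at 10.40, 5.42, 10.13 and 6.22 for AD_B6 and at 9.54, 8.27, 6.00 and 8.86 for AD_TG. Each group held high and low libraries, and the group means of 8.54 ± 1.65, 8.04 ± 2.59 and 8.17 ± 1.54 (SD, n = 4) lay closer together than the libraries within any group. Its pooled SD within groups, 1.98, was above the median of 1.25 over the 1315 genes of similar mean (within 0.5) that had reads in all libraries, and 13.2% of those genes had a larger one.

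Rel, the gene of c-Rel, a subunit best known from lymphocytes, had reads in 4 libraries. It stood at 7.82 and 2.39 in SJL_B6 replicates 3 and 4 (the latter about 5 reads), at 5.60 in AD_B6 replicate 2 and at 7.46 in AD_TG replicate 4. The other 8 libraries had no reads. Of lymphocyte markers, Pax5 of B cells and Cd3e and Cd3g of T cells had none in any library.

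Of the slower branch, Nfkb2 stood at 8.46, 8.97, 9.14 and 0 for SJL_B6, at 9.75, 8.34, 9.27 and 0.03 for AD_B6 and at 9.81, 9.85, 9.99 and 9.77 for AD_TG. The 4 AD_TG libraries lay above the 8 others, by 0.02 over the highest AD_B6 library, and SJL_B6 replicate 4 and AD_B6 replicate 4 had no reads. Every AD_TG library was above every other library for 0.159% of the genes tested. The AD_TG mean was 9.86 ± 0.09, against 6.64 ± 4.44 in SJL_B6 and 6.85 ± 4.58 in AD_B6 (SD, n = 4), where the wide SDs come from the library without reads in each. In the GENCODE M21 gene models the end of Nfkb2 overlaps that of Psd on the other strand, and whether the counting used strand is not stated in the labels, so reads of the pair may not be separated. Psd ran from 6.07 to 7.95 in SJL_B6 and from 4.85 to 8.66 in AD_TG, and it had no reads in AD_B6 replicates 3 and 4, at 7.70 and 8.88 in the other 2. AD_B6 replicate 3, without Psd reads, had Nfkb2 at 9.27, and SJL_B6 replicate 4, without Nfkb2 reads, had Psd at 6.07.

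Relb, the partner of p52, had no reads in any SJL_B6 library. It stood at 9.78 and 7.004 in AD_B6 replicates 2 and 3, with none in replicates 1 and 4, and at 6.28, 8.01, 5.87 and 7.33 for AD_TG replicates 1 to 4. AD_TG and SJL_B6 therefore did not overlap, while AD_B6 spanned both. These values stand for about 44 to 329 reads in AD_TG, and 1045 in AD_B6 replicate 2. Reads in none of the SJL_B6 libraries and at least 6 of the other 8 were found for 0.125% of the genes tested.

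Nfkbia encodes I kappa B alpha, the inhibitor that is degraded on activation and made again from the factor's own action. It stood at 11.19, 12.01, 11.90 and 12.22 for SJL_B6, at 11.09, 10.55, 10.71 and 11.26 for AD_B6 and at 11.44, 11.20, 11.90 and 12.75 for AD_TG. About 1607 to 8361 reads per library lay behind these values. AD_B6 held the 3 lowest libraries of all 12, and its highest, replicate 4, lay above SJL_B6 replicate 1 and AD_TG replicate 2. Nfkbia thus averaged 10.90 ± 0.33 in AD_B6, beside 11.83 ± 0.45 for SJL_B6 and 11.82 ± 0.68 for AD_TG (SD, n = 4). In the 7 libraries that list zeros, AD_B6 averaged 10.78 (3 libraries), SJL_B6 12.11 (2) and AD_TG 11.97 (2). In the other 5, the single AD_B6 library was at 11.26, beside 11.54 and 11.67 for the pairs of SJL_B6 and AD_TG.

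Tnfaip3 encodes A20, a ubiquitin-editing enzyme that shuts the pathway off. SJL_B6 replicates 2 to 4 gave 6.14, 7.75 and 7.82, AD_B6 replicates 1 and 4 gave 7.73 and 8.50, and AD_TG replicates 2 to 4 gave 6.08, 8.74 and 7.36. It had no reads in SJL_B6 replicate 1, AD_B6 replicates 2 and 3 and AD_TG replicate 1. Where the gene had reads, the ranges of the groups overlapped.

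Tradd encodes the adaptor that binds the death domain of the TNF receptor TNFR1 and recruits the signalling complex. It stood at 8.09, 7.41, 7.02 and 7.15 for SJL_B6, about 76 to 237 reads, and had no reads in any of the 4 AD_B6 libraries. In AD_TG it stood at 4.46, 6.77 and 7.14 in replicates 1 to 3 and had no reads in replicate 4. SJL_B6 and AD_B6 did not overlap, and 26 of the genes tested (0.217%) had, like Tradd, no reads in AD_B6 and reads in at least 7 of the other 8 libraries. All 3 AD_B6 libraries that list zeros have Tradd at 0, and the fourth lists it at 0.03, the same small value it gives Rel and Tnf.

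Of the early cytokines, Il1b, which encodes the fever-inducing interleukin-1 beta, had reads in all 12 libraries. It stood at 5.63, 6.53, 8.19 and 9.84 for SJL_B6, at 8.23, 9.08, 9.53 and 7.83 for AD_B6 and at 7.98, 9.59, 8.61 and 9.72 for AD_TG. The 2 lowest libraries and the highest were all SJL_B6, whose mean was 7.55 ± 1.86, beside 8.67 ± 0.78 in AD_B6 and 8.97 ± 0.83 in AD_TG (SD, n = 4). Il1b is a gene of activated macrophages and neutrophils. In bulk RNA, fewer cells of a type and less RNA per cell cannot be told apart.

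Tnf, the gene of tumour necrosis factor, stood at 8.82 in SJL_B6 replicate 4, about 528 reads, and at 2.17 in SJL_B6 replicate 3, about 2 reads. No other library had reads. The same 2 libraries also held reads of Rel, and SJL_B6 replicate 4 had the highest Il1b of all 12. Since Tnf and Rel passed the low-value filter in too few libraries, they are outside the main test, and 8 members were tested.

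Levels of other cells' markers moved between libraries beside these values. The summed linear level of 10 macrophage markers, on a log2 scale, was 14.37 to 15.06 (SJL_B6), 13.51 to 14.50 (AD_B6) and 14.01 to 14.57 (AD_TG), with all 10 read in every library. The sum of 10 neutrophil markers ran from 8.88 to 12.65, from 10.70 to 14.27 and from 9.37 to 14.28, and 4 to 10 of them had reads in a library. Elane alone had none in AD_TG. The 6 choroid plexus markers summed to 13.87 to 18.55 (SJL_B6), 14.27 to 19.24 (AD_B6) and 16.67 to 18.76 (AD_TG). For the 6 meningeal fibroblast markers the sums were 13.72 to 14.73, 13.51 to 15.60 and 12.79 to 15.23. The 8 lymphatic endothelial markers summed to 10.39 to 11.79, 10.36 to 10.97 and 10.16 to 11.35; Prox1 and Reln had no reads in AD_B6, and Prox1 none in AD_TG. The 11 immediate early genes, which respond within minutes to stress and tissue handling, summed to 12.52 to 13.85, 12.75 to 14.95 and 12.65 to 15.52. Their part in the members' values, and that of the fewer genes with reads in AD_B6, was not tested.

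The comparison of AD_B6 with SJL_B6 concerns what goes with the AD label, although the titles also differ in SJL. Tradd had reads in all 4 SJL_B6 libraries and in none of AD_B6, Nfkbia averaged 0.93 lower in AD_B6 and Relb had reads in AD_B6 alone. The means of Nfkb1, Rela and Tnfaip3 were lower in AD_B6 as well, by values within the spread, and those of Il1b and Nfkb2 were higher.

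Limma called 0 of the 8 members and 0 of 11955 genes (0%) at an adjusted p below 0.05, with 647 genes (5.41%) at an unadjusted p below 0.05, and no other tool was run. For Tradd the difference on the log2(x + 1) scale was -7.41 (SE 2.24, limma unadjusted p = 0.00291, adjusted p = 0.869); since AD_B6 is listed at 0 or at that small value, it is no fold change. The 95% interval of Nfkbia ran from -1.70 to -0.15 (limma unadjusted p = 0.0209, adjusted p = 0.869). Relb differed by 4.18 (SE 2.40), Nfkb1 by -1.40 (SE 0.97) and Il1b by 1.12 (SE 0.93). The values were 0.21 (SE 1.84) for Nfkb2, -0.50 (SE 1.17) for Rela and -1.38 (SE 2.68) for Tnfaip3. The groups did not overlap for 1 of 8 members in the lower direction, Tradd, beside 1.75% of the genes tested, and for none in the higher direction, beside 0.912%. Reads in none of AD_B6 and all 4 of SJL_B6 were found for 23 genes (0.192%). Tradd and Nfkbia, 2 of 8, were lower at an unadjusted p below 0.05, beside 4.05% of all genes. With a pseudocount of 10 the difference of Tradd was -4.17, and with each library centred on its mean that of Nfkbia was -0.46. Leaving out 1 library moved Relb to 2.32 (without AD_B6 replicate 2), Nfkb1 to -0.69 (without AD_B6 replicate 3) and Il1b to 0.48 or 1.88 (without SJL_B6 replicate 1 or 4). By sign, 3 of 8 members were higher in AD_B6, beside 40.2% of all genes, and their median difference was -0.71, beside -0.31.

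The comparison of AD_TG with AD_B6 bears on the TG label, and the titles differ in B6 too. All 8 tested members had a higher mean in AD_TG. Nfkbia, the inhibitor gene, averaged 0.92 higher, Nfkb1 1.56 and Nfkb2 3.01, and Tradd had reads in 3 AD_TG libraries and none of AD_B6. The means of Il1b and Rela differed by far less than their spread.

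In limma, 0 of the 8 members and 0 of 11955 genes (0%) passed, with 639 genes (5.35%) at an unadjusted p below 0.05. The 95% interval of Nfkbia ran from 0.15 to 1.69 (limma unadjusted p = 0.0218, adjusted p = 0.871). AD_B6 enters both this value and the -0.93 above, so the 2 are not independent. Tradd differed by 4.58 (SE 2.24), Nfkb2 by 3.01 (SE 1.84), Relb by 2.67 (SE 2.40) and Nfkb1 by 1.56 (SE 0.97). Tnfaip3 differed by 1.51 (SE 2.68), Il1b by 0.31 (SE 0.93) and Rela by 0.13 (SE 1.17). Groups did not overlap for 1 of 8 members in the higher direction, Nfkb2, beside 1.86% of the genes tested, and for none in the lower direction (0.928%). Higher by sign were 62.8% of all genes, with a median difference of 0.41, and the members' median was 1.53. At an unadjusted p below 0.05, 1 of 8 members was higher, Nfkbia, beside 4.34% of all genes. Without AD_B6 replicate 4, which had no Nfkb2 reads, Nfkb2 differed by 0.74. Relb moved to 1.27, 4.53 or 1.28 without AD_B6 replicate 1, 2 or 4, Nfkb1 to 0.85 without AD_B6 replicate 3 or 0.97 without AD_TG replicate 3, and Nfkbia to 0.61 without AD_TG replicate 4. With a pseudocount of 10, Tradd differed by 2.27 and Relb by 1.11. Centring each library on its mean took Nfkbia to 0.29, turned Rela to -0.51 and Il1b to -0.32 and left 6 of 8 members higher; it also moved the median over all genes to -0.22.

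Between AD_TG and SJL_B6, Relb had reads in all 4 AD_TG libraries and in none of SJL_B6, and the 4 Nfkb2 values of AD_TG lay above those of SJL_B6. Nfkbia, Nfkb1 and Tnfaip3 had nearly the same means in both groups. Il1b was 1.43 higher in AD_TG on average and Tradd lower.

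Limma called 0 of the 8 members and 0 of 11955 genes (0%), with 357 genes (2.99%) at an unadjusted p below 0.05. Relb differed by 6.85 on the log2(x + 1) scale (SE 2.40, limma unadjusted p = 0.00859, adjusted p = 0.999), again no fold change because every SJL_B6 library was without reads. Nfkb2 differed by 3.21 (SE 1.84), Il1b by 1.43 (SE 0.93) and Tradd by -2.82 (SE 2.24). Nfkbia differed by -0.01, with a 95% interval of -0.78 to 0.77, Nfkb1 by 0.16 (-1.84 to 2.16), Tnfaip3 by 0.13 (-5.40 to 5.67) and Rela by -0.37 (-2.78 to 2.03). Groups did not overlap for 2 of 8 members in the higher direction, Nfkb2 and Relb, beside 1.38% of the genes tested, and for none in the lower direction (1.07%). Reads in all 4 of AD_TG and none of SJL_B6 were found for 12 genes (0.1%). At an unadjusted p below 0.05, 1 of 8 members was higher, Relb, beside 1.84% of all genes. Without SJL_B6 replicate 4, which had no Nfkb2 reads, Nfkb2 differed by 0.9996. Il1b moved to 0.79 or 2.19 without SJL_B6 replicate 1 or 4, and Tradd to -1.29 without AD_TG replicate 4. With a pseudocount of 10, Relb differed by 3.67. By sign, 5 of 8 members were higher, beside 53.3% of all genes, with medians of 0.15 and 0.08.

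**Figure D3:**
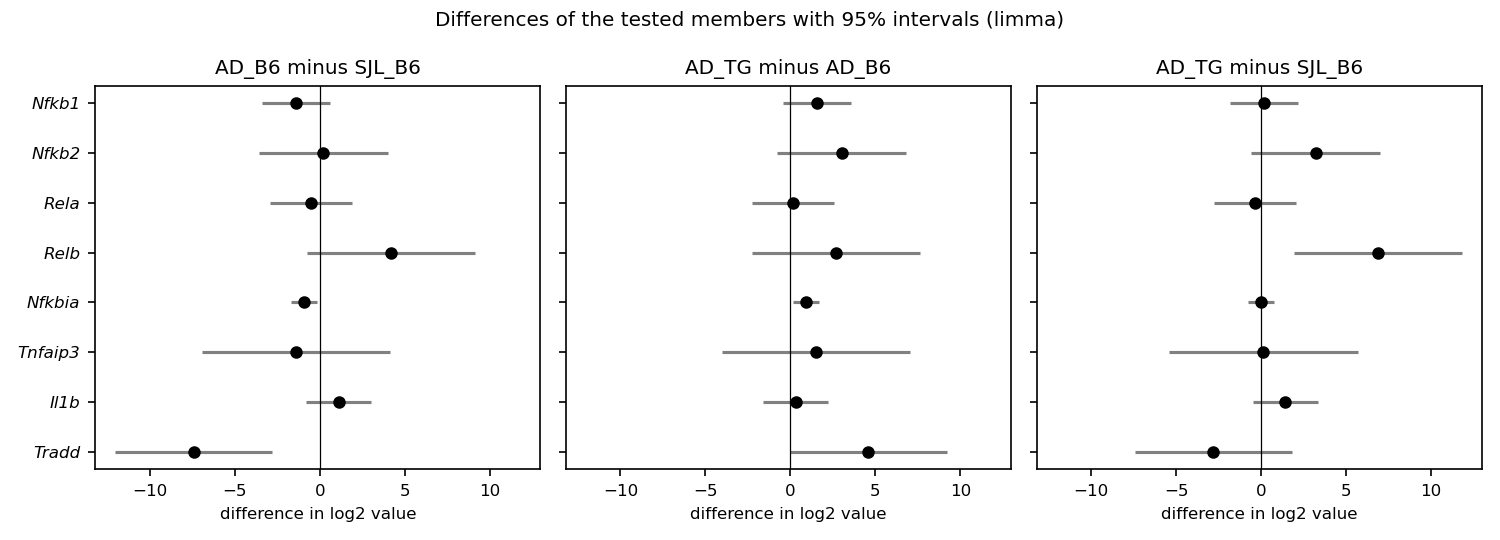
Difference in deposited log2 value (x axis) of the 8 tested members in the 3 comparisons, with limma's 95% interval as the bar. Intervals that leave out 0 are those of Tradd (-7.41) and Nfkbia (-0.93) for AD_B6 minus SJL_B6, Nfkbia (0.92) for AD_TG minus AD_B6 and Relb (6.85) for AD_TG minus SJL_B6, and none passed the adjusted threshold.

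Other genes of the pathway were read through 6 lists of 74 genes, all present in the files. Per library, 51 to 55 of them had reads in SJL_B6, 40 to 49 in AD_B6 and 51 to 58 in AD_TG. Of the 60 that could be tested, limma called 0 in each comparison. For AD_B6 against SJL_B6, 21 were higher and 39 lower, with a median difference of -0.18, beside 59.8% lower and a median of -0.31 over all genes. For AD_TG against AD_B6, 43 were higher and 17 lower (median 0.56), beside 62.8% higher and 0.41 over all genes. For AD_TG against SJL_B6, 29 were higher and 31 lower (median -0.05), beside 53.3% higher and 0.08. These all-gene shares and medians are the background of the list counts that follow.

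Receptors gave no common direction. Tnfrsf1a, which encodes the TNF receptor that Tradd binds, averaged 9.91 ± 0.96 (SJL_B6), 10.25 ± 0.64 (AD_B6) and 10.42 ± 0.43 (AD_TG) (SD, n = 4), and Tnfrsf1b, the second TNF receptor, 8.94 ± 0.85, 8.83 ± 0.82 and 9.11 ± 1.04. Both had reads in every library. Of the 8 tested receptor genes, 4 were higher in each of the 3 comparisons.

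Among 16 tested adaptor genes, 4 were higher in AD_B6 than in SJL_B6 and 9 higher in AD_TG than in AD_B6. Irak1, a kinase adaptor of the interleukin-1 receptor, averaged 10.17 ± 0.59 (SJL_B6), 8.70 ± 1.18 (AD_B6) and 9.004 ± 1.80 (AD_TG) (SD, n = 4). Rbck1, part of the complex that builds linear ubiquitin chains, averaged 8.76 ± 0.75, 8.62 ± 0.92 and 8.69 ± 1.14. Of 8 tested kinase genes, 5 were higher in AD_B6 than in SJL_B6 and 6 higher in AD_TG than in AD_B6. Map3k7, the gene of the kinase TAK1 that activates IKK, averaged 8.97 ± 1.56, 9.26 ± 0.41 and 7.40 ± 2.15, and Tab2, its binding partner, 9.53 ± 0.35, 9.62 ± 0.23 and 9.95 ± 0.94.

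Of 10 tested inhibitor and modulator genes, 7 were lower in AD_B6 than in SJL_B6 and 8 higher in AD_TG than in AD_B6. The shares over all genes were 59.8% and 62.8%, and both comparisons share AD_B6. Between AD_TG and SJL_B6, 5 were higher and 5 lower. Cyld, a deubiquitinase that restrains the pathway, averaged 9.58 ± 0.84 (SJL_B6), 9.56 ± 0.51 (AD_B6) and 10.21 ± 0.33 (AD_TG) (SD, n = 4). Tax1bp1, an adaptor of A20, averaged 9.86 ± 0.68, 10.61 ± 0.59 and 10.60 ± 0.55.

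In the list of cytokines and targets, 10 of 14 tested genes were lower in AD_B6 than in SJL_B6 (median -0.70), beside 59.8% of all genes (median -0.31). In AD_TG, 13 of 14 were higher than in AD_B6 (median 1.26), beside 62.8% of all genes (median 0.41). Both comparisons share AD_B6. Between AD_TG and SJL_B6, 7 were higher and 7 lower (median -0.007), beside 53.3% of all genes higher (median 0.08). Vcam1, the adhesion molecule of activated endothelium, averaged 9.88 ± 1.13 (SJL_B6), 9.66 ± 0.73 (AD_B6) and 10.27 ± 1.001 (AD_TG) (SD, n = 4). Sod2, a mitochondrial superoxide dismutase, averaged 9.95 ± 0.40, 9.85 ± 0.91 and 9.81 ± 0.31. Of the 4 genes that process the cytokines, 3 were lower in AD_B6 than in SJL_B6. Adam17, the protease that releases TNF from the cell surface, averaged 8.51 ± 0.99, 8.55 ± 0.93 and 8.24 ± 0.60. Nlrp3, the inflammasome sensor upstream of interleukin-1 beta, had reads in 3, 2 and 3 libraries of the groups.

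An unadjusted p below 0.05 was given to 2 of these 60 genes for AD_B6 against SJL_B6, to 4 for AD_TG against AD_B6 and to none for AD_TG against SJL_B6; over all genes tested the shares were 5.41%, 5.35% and 2.99%. The genes are named because there are few, after their values were seen. Bcl3, a nuclear partner of p50 and p52, stood at 6.43, 6.73, 7.16 and 8.50 for SJL_B6, at 6.30 in AD_B6 replicate 2 with no reads in the others, and at 5.83, 7.21, 6.64 and 6.87 for AD_TG. It was thus counted in both comparisons, with differences of -5.62 (SE 2.16, limma adjusted p = 0.869) and 5.06 (SE 2.16, limma adjusted p = 0.871). Il18, a cytokine related to interleukin-1, lay between 4.17 and 8.93 for SJL_B6, and a single AD_B6 library held reads of it, at 0.87. Cd14, the co-receptor of bacterial lipopolysaccharide, lay between 7.68 and 11.42 for AD_TG, while AD_B6 replicates 1 to 3 gave 7.98, 8.85 and 6.47 and replicate 4 no reads. Pycard, the inflammasome adaptor, had reads in 3 SJL_B6 libraries, no AD_B6 library and 4 AD_TG libraries. The chemokine gene Cxcl1 had reads in 1 SJL_B6 library, no AD_B6 library and 3 AD_TG libraries.

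**Figure D4:**
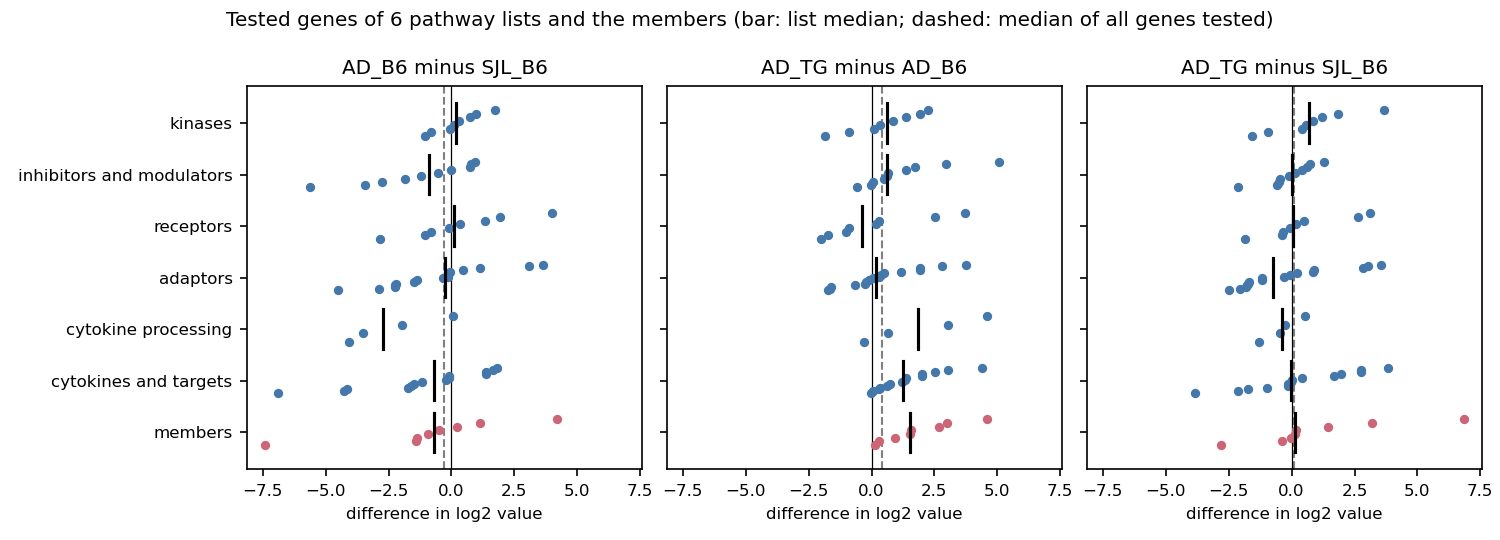
Difference in deposited log2 value (x axis) of each tested gene in 6 pathway lists (blue) and of the 8 tested members (red) in the 3 comparisons; bars are list medians and the dashed line is the median over all 11955 genes. For AD_TG minus AD_B6 the members' median is 1.53 and that of cytokines and targets 1.26, beside 0.41 for all genes. For AD_TG minus SJL_B6 the same medians are 0.15, -0.007 and 0.08.

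Likeness of pattern was measured by Pearson's r of the deposited log2 values over the 12 libraries, among the 4950 genes with reads in all 12. It describes these libraries, which share depth and scaling across genes. The genes named are the 3 highest of 4949 for each member over only 12 libraries, and no r was tested against chance. For Nfkbia the closest genes were Srebf1 (r = 0.85, Spearman's rho = 0.90), Cdh1 (r = 0.83, rho = 0.83) and Scpep1 (r = 0.82, rho = 0.87). For Nfkb1 they were Gm973 (r = 0.93, rho = 0.90), Neu1 (r = 0.86, rho = 0.67) and Limch1 (r = 0.86, rho = 0.83). For Rela they were Irf2 (r = 0.85, rho = 0.85), Polr1a (r = 0.83, rho = 0.78) and 2310010J17Rik (r = 0.81, rho = 0.88). For Il1b they were Fam114a1 (r = 0.88, rho = 0.85), Plxdc2 (r = 0.88, rho = 0.73) and Ncam1 (r = 0.87, rho = 0.83). Among these 4 members, the only ones compared, none was among the 3 closest genes of another.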

How the data were processed

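The libraries were made from 500 ng of total RNA with the Lexogen QuantSeq kit, which reads transcripts near their ends, per the labels' protocols. Bowtie2, bedtools and the build hg19, a human build, are named in the submitters' processing notes, without versions; the counting and the scaling are not given in the sources used here. Each file holds deposited log2 values, log2(x + 1), for 23282 entries. Of 35 symbols with several entries, the one with the highest mean was kept, and 44 entries were left out. Low linear values lay on even steps, and 91.3 to 100% of those below 20 fell within 0.15 of a whole multiple. Estimated reads are each library's linear sum over its step.

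The test, limma 3.58.1 (R 4.3.3, with a trended prior), took every gene that reached 10 on the linear scale in 4 or more libraries, in 1 fit of all 12 libraries, two-sided, with Benjamini-Hochberg adjustment over the 11955 genes. The fit was also tried on the deposited values shuffled within each gene, with differences added to randomly chosen genes. The outcome of that trial is not reported here. Members, lists and tests were chosen with earlier results of these data known. Named pathway genes were the 2 tested genes of each list with the highest mean, any gene called, and, for members with reads in all 12 libraries, the 3 genes of highest Pearson's r. Promoter sequences are from RefSeq (GRCm38.p6) and were matched by symbol for 7 of 10 members; overlaps of gene models were read from GENCODE M21. Promoter coordinates are those of RefSeq, and no coordinates were taken from the build named for the files. Alternatives were a pseudocount of 10 in place of 1, looser and stricter filters, other scalings, library weights, summed entries, the 8 libraries compared alone, a replicate block and leaving out each library.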

Additional observations from a re-analysis of the deposited data

Results flagged for a closer look

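In 26 groups of 4 libraries in which a member's values varied, 4 libraries stood far from the other 3 of their group. The gap to the nearest, over the range, was above Dixon's 95% critical value. For normally distributed values chance exceeds it in about 1 of 20 groups. Values without reads were set to 0 first, so a group with reads in a single library, as for Rel, is always flagged. The count of 4 can therefore not be set against that rate. Nfkb2 was listed at 0 in SJL_B6 replicate 4, where the others stood at 8.46 to 9.14. Nfkb2 was listed at 0.031 in AD_B6 replicate 4, below 1 read, where the others stood at 8.34 to 9.75. Rel stood at 5.60 in AD_B6 replicate 2 and at 7.46 in AD_TG replicate 4, with no reads in the other 3 libraries of either group.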

How the results depend on the processing

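In limma the count of genes called was 0 under each of 22 alternatives in each comparison. The sign of a tested member's difference was kept in 481 of 516 fits and turned in 35. With median ratio scaling, Nfkbia for AD_TG minus SJL_B6 was 0.00164. With each library centred on its mean, Rela was -0.51 and Il1b -0.32 for AD_TG minus AD_B6, and Nfkb1 was -0.00376 and Tnfaip3 -0.030 for AD_TG minus SJL_B6. With library weights, Nfkbia was 0.029 and Tnfaip3 -0.45 for AD_TG minus SJL_B6. With the form of listing as a covariate, an alternative added after seeing the data, Nfkb2 was -0.014 for AD_B6 minus SJL_B6. The cause was not tested. Leaving out 1 library, the ranges that crossed 0 were -2.01 to 2.48 for Nfkb2 and -1.29 to 0.37 for Rela (AD_B6 minus SJL_B6), and -0.75 to 0.91 for Rela (AD_TG minus AD_B6). For AD_TG minus SJL_B6 they were -0.43 to 0.83 for Nfkb1, -0.99 to 0.35 for Rela, -1.67 to 1.96 for Tnfaip3 and -0.32 to 0.20 for Nfkbia. Libraries whose absence turned a sign were SJL_B6 replicate 4 and AD_B6 replicates 1 to 3 for Nfkb2, SJL_B6 replicate 1 and AD_B6 replicates 2 and 4 for Rela (AD_B6 minus SJL_B6), and AD_B6 replicates 2 and 4 and AD_TG replicates 1 and 4 for Rela (AD_TG minus AD_B6). For AD_TG minus SJL_B6 they were SJL_B6 replicates 1 and 3 and AD_TG replicates 3 and 4 for Nfkb1, SJL_B6 replicates 1 and 2 and AD_TG replicate 3 for Rela, SJL_B6 replicate 1 and AD_TG replicates 2 to 4 for Tnfaip3, and SJL_B6 replicates 2 to 4 and AD_TG replicates 1 and 2 for Nfkbia. Centring moved the median over all genes from -0.31, 0.41 and 0.08 to 0.16, -0.22 and -0.08. Adding a pseudocount of 10 kept every sign and brought Relb for AD_B6 minus SJL_B6 to 2.56. Tnfaip3 without 1 library ran from -3.18 to -0.023 (AD_B6 minus SJL_B6) and from 0.16 to 3.34 (AD_TG minus AD_B6). With at least 3 reads required, Tnf was read in 1 library in place of 2, and no other member's count moved.

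With the replicate number of the titles as a replicate block, limma called 0 genes in each comparison, with 685, 685 and 376 genes at an unadjusted p below 0.05, beside 647, 639 and 357 without it. Nothing in the labels pairs the libraries by number. Deviations of same-numbered libraries had correlations across genes of -0.015 to 0.067, and 1 of 4 libraries in each comparison was closest to its own number. The block changed no call.

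Depth and spread limit these comparisons: the 95% interval had a median half-width of 3.85 on the log2 scale over all genes tested.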

Other observations

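The 14 pathway genes outside the test reached the low-value filter in too few libraries. Il6, the gene of interleukin-6, and Lif, of the same cytokine family, had no reads in any of the 12. Il1rn, which encodes the natural antagonist of the interleukin-1 receptor, had reads in 3 SJL_B6 libraries, no AD_B6 library and 1 AD_TG library. Map3k8, a kinase downstream of Toll-like receptors, had reads in 1, 0 and 3 libraries of SJL_B6, AD_B6 and AD_TG. Il1r2, the decoy receptor of interleukin-1, had reads in 2, 0 and 2. Il1a, the gene of interleukin-1 alpha, had reads in 1 AD_B6 library alone. In the same order of groups, libraries with reads were 2, 1 and 3 for Ticam1, 1, 2 and 1 for Ikbke and 1, 1 and 1 for Nfkbie. They were 2, 0 and 1 for Traf2, 2, 0 and 0 for Sele and 1, 0 and 0 for Cd40. For Nfkbid they were 0, 0 and 2, and for Nos2 0, 1 and 0. Over all symbols, AD_B6 libraries had 8748 to 11449 genes with reads, SJL_B6 10860 to 12217 and AD_TG 11019 to 12018.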
